A study of Mus musculus with 36 samples.

Results

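In the left ventricle of CUG960 mice, a model of the heart in myotonic dystrophy type 1 (DM1), 72 of 55291 gene symbols had expression that moved most of the way from the diseased to the reversed level in each of 3 cohorts given extra MBNL protein. The genes were chosen by their own ventricular values, in 2 steps. First, the mean of log2(TPM + 1), where TPM (transcripts per M) is the share of all transcripts corrected for their length, had to differ by at least 0.58 between mice whose expanded repeat RNA was turned off and mice that kept it, with no overlap between the libraries of the 2 groups and a higher group mean of at least 1 TPM. This left 654 candidates, of which 300 were higher and 354 were lower with the repeat RNA off. Second, the position of a cohort, which is 0 at the mean of mice that kept the RNA and 1 at the mean of mice in which it was turned off, had to be at least 0.7 in each MBNL cohort. Of the 72 members, 46 were higher and 26 were lower with the RNA off, and 582 candidates were not members.

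Every animal had the genotype TREDT960I (Hom)/ MHCrtTA (Hem), in which a TRE-driven human DMPK transgene with 960 interrupted CTG repeats is switched on by doxycycline (dox) through rtTA that the cardiomyocyte promoter α-MHC drives. The –dox controls therefore carry both transgenes too and never received dox. The other mice received dox from postnatal day 1. The +dox cohort stayed on it until collection at 21 weeks, the +/–dox cohort was taken off it at 9 weeks, and 3 cohorts that stayed on dox were injected at 9 weeks with AAV9 for human 3XFLAG-MBNL1, human 3XMYC-MBNL2 or both (MBNL1, MBNL2 and MBNL1+MBNL2), which a cardiac troponin T promoter expresses in the heart. Left ventricle and atria were sequenced with 3 libraries per cohort, which gave 36 libraries in 12 groups. According to the study's supplement both chambers came from the same animals, and the MBNL1+MBNL2 cohort held no female. The +dox cohort of these libraries carried no control virus, so that the injection itself and the MBNL proteins cannot be told apart.

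In DM1, transcripts with expanded CUG repeats stay in the nucleus and bind the muscleblind-like proteins MBNL1 and MBNL2. These RNA-binding proteins steer the switch of splicing from fetal to adult isoforms and also act on the stability and localization of messenger RNAs, and less of them is free while the repeats hold them. Turning the transgene off removes the repeat RNA, whereas added MBNL is expressed while the transgene stays on. Expression changes that both measures bring back are the subject here. Since whole tissue was sequenced, fewer cells of a type and less RNA per cell cannot be told apart.

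The expected counts per library summed to 57.8 to 97.1 M in the ventricle and 55.0 to 85.8 M in the atria, and the +dox ventricles, at 69.5 to 97.1 M, were sequenced more deeply than most of the other ventricular libraries at 57.8 to 78.0 M. The first MBNL1 ventricle had a count above 0 in 16876 genes, and the other ventricles in 20550 to 23993, so that its scarce genes are the least certain. Summed ventricular markers (Myl2, Myl3, Irx4, Hey2) were at least 19779 TPM in every ventricular and at most 806 TPM in every atrial library. Mouse Mbnl2, to which reads of the human cDNA could align, was at 127 to 174 TPM in the MBNL2 and 114 to 153 TPM in the MBNL1+MBNL2 ventricles and at most 108 TPM in the other ventricles. Mouse Mbnl1 was at 56.4 to 68.1 TPM in the MBNL1 and 54.8 to 69.0 TPM in the MBNL1+MBNL2 ventricles and at most 54.7 TPM in the others, where the lowest MBNL1+MBNL2 library was just above the highest +dox one. By the digits of the library names, replicates 1 and 2 of the other cohorts fell in 1 set of libraries and replicate 3 in another, which also held all 3 MBNL1+MBNL2 libraries of each chamber, so that for MBNL1+MBNL2 the set and the cohort cannot be fully told apart. All 72 members passed the filter on low counts that kept 19231 genes for testing, and 66 of the 70 found in the GENCODE M21 annotation were protein coding.

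The ventricular levels of the members are given as a description, because they chose the members. The 46 higher members had a median of 12.7 TPM in +dox and 21.3 TPM in +/–dox ventricles, and their fold difference on the TPM + 1 scale ran from 1.50 to 2.08 with a median of 1.60. The 26 lower members were scarcer, with a median of 5.20 TPM in +dox and 2.39 TPM in +/–dox ventricles and folds from 1.50 to 2.82 (median 1.71). In 13 of the 26 lower members and 4 of the 46 higher ones, the higher of the 2 group means was under 5 TPM.

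**Figure D1:**
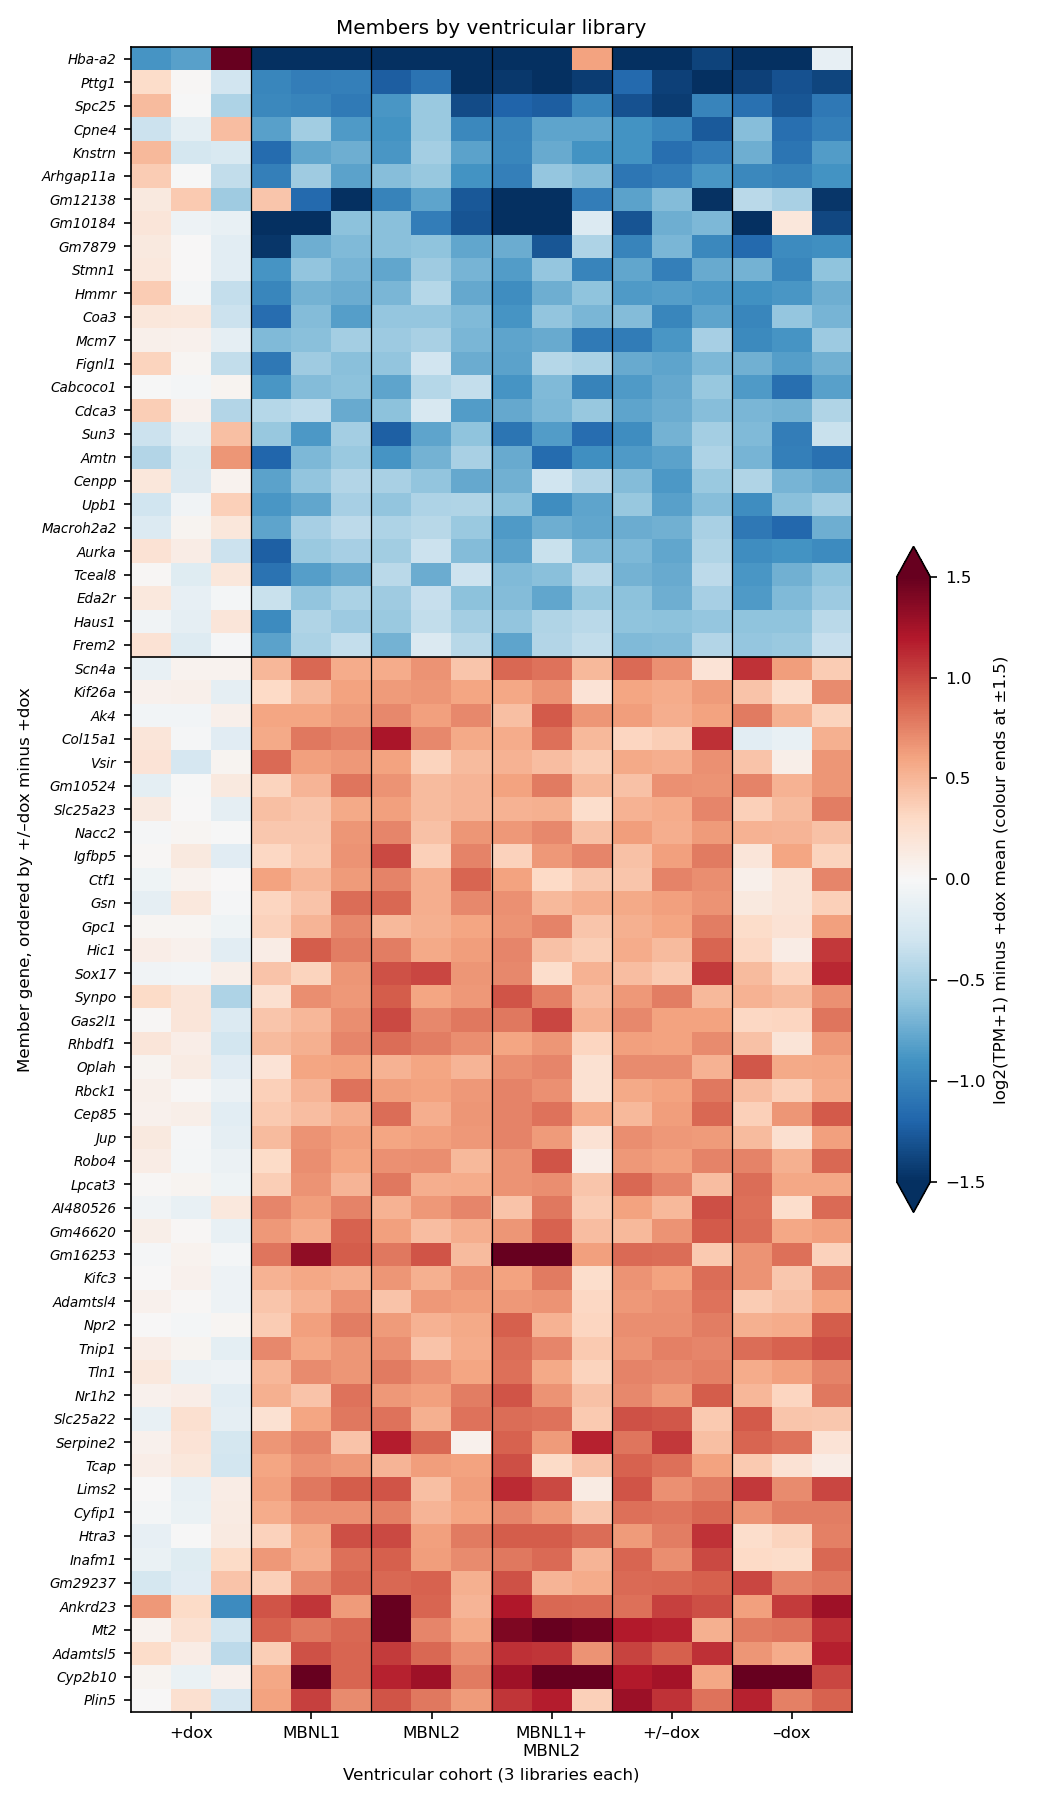
Each row is 1 of the 72 members, of which 1 higher member is not drawn, and each column 1 of the 18 ventricular libraries, grouped by cohort, and the colour is log2(TPM + 1) minus the +dox mean of the gene. The 26 lower members are above the horizontal line and the higher ones below it, and the 3 MBNL cohorts resemble +/–dox in colour, as the selection required, with some pale or reversed cells, for example in Hba-a2, Gm12138, Gm10184 and Serpine2.

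Among the 46 higher members, the median position was 0.835 in MBNL1, 0.932 in MBNL2 and 0.902 in MBNL1+MBNL2. Among the 26 lower members it was 0.922, 0.776 and 0.941 in the same order. The median of all genes tested was higher by 0.06 (log2(TPM + 1)) in MBNL2 than in +dox ventricles, by 0.02 in MBNL1+MBNL2 and by 0.00 in MBNL1. With each cohort centred on that median, an alternative added after the values had been seen, the medians were 0.834, 0.836 and 0.875 for the higher and 0.923, 0.862 and 0.964 for the lower members. After centring the medians of MBNL1+MBNL2 lay nearest to 1 in both directions. These medians are cut from below at 0.7 by the selection and were not tested. The MBNL1 positions include the ventricular library with the fewest genes above 0. Over all 654 candidates the medians were 0.589, 0.496 and 0.621, and 219, 166 and 261 candidates reached 0.7 in the respective cohort.

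The selection also left libraries that overlap. Every MBNL1 library lay beyond all +dox libraries in 66 of the 72 members (42 above and 24 below), every MBNL2 library in 67 (44 and 23) and every MBNL1+MBNL2 library in 70 (45 and 25). The rule largely sets these counts and no share over all genes is given beside them, so nothing is read from them. The members just inside the threshold were Arhgap11a, with a lowest position of 0.703, Cpne4 (0.703) and Ctf1 (0.707). Just outside lay Shank3 (0.699) and Zfp219 (0.690). Among genes that the study named for expression, Ryr2, Kcna4, Ckmt2 and Cdnf were candidates whose lowest position was 0.404, 0.494, 0.636 and 0.415, and Asph, Gja5 and Hcn4 were not candidates, so none of them was a member. Membership turned on single libraries: when each of the 15 libraries of the rule was left out in turn, 4 members (Cyp2b10, Stmn1 and the predicted genes Gm10184 and Gm16253) stayed members every time. On TMM-scaled CPM (counts per M) in place of TPM, the rule found 96 genes, of which 42 were among the 72.

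**Figure D2:**
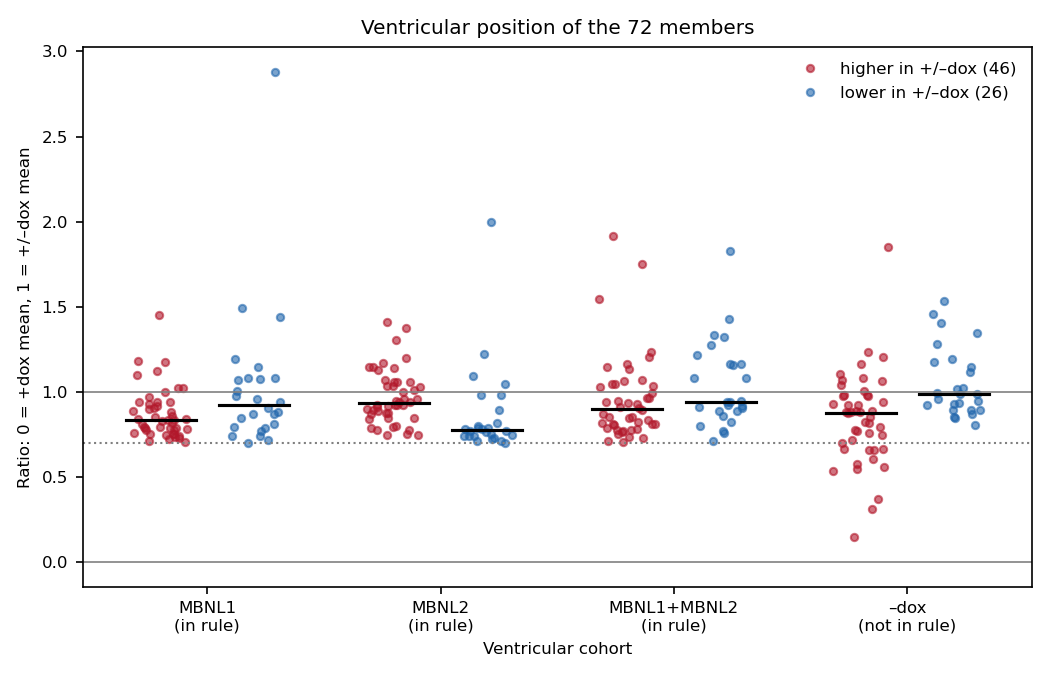
Position of each member in the ventricles of the 3 MBNL cohorts and of the –dox cohort, where 0 is the +dox mean and 1 the +/–dox mean; bars are medians and the dotted line is the threshold of 0.7. Only the –dox cohort was outside the rule, and there all 26 lower members were at 0.805 or more while the 46 higher ones spread from 0.145 to 1.85.

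Of the 26 lower members, 12 are known for roles in cell division, a grouping made after their values were seen and with no share over all genes beside it: Pttg1, Spc25, Knstrn, Arhgap11a, Stmn1, Hmmr, Mcm7, Fignl1, Cdca3, Cenpp, Aurka and Haus1. Their summed level was 102.5, 87.7 and 81.5 TPM in the +dox ventricles, and every other ventricular library, –dox included, was between 40.9 and 58.1 TPM. Adult cardiomyocytes rarely divide, and 8 of the 12 had a +dox mean under 5 TPM.

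Pttg1 (chr11:43420250-43426251 of GRCm38, minus strand) encodes securin, which keeps sister chromatids together until anaphase. It was at 14.1, 11.6 and 9.17 TPM in the +dox ventricles and at 4.53, 3.72 and 3.30 TPM in the +/–dox ones. The MBNL1 ventricles had 5.30, 5.07 and 5.11 TPM, the MBNL2 ones 4.29, 4.79 and 2.89 TPM, the MBNL1+MBNL2 ones 3.55, 2.31 and 3.65 TPM and the –dox ones 3.73, 4.03 and 3.81 TPM. All 15 libraries of the other cohorts were therefore under the lowest +dox library, with the MBNL1 cohort (position 0.742) the nearest to it.

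Stmn1, whose product stathmin frees tubulin from microtubules, was the most abundant of the 12 and the largest part of their sum. It measured 40.1, 35.96 and 31.9 TPM in +dox ventricles, 20.4, 17.1 and 20.8 TPM in +/–dox, 19.0, 23.4 and 21.6 TPM in MBNL1, 20.4, 24.4 and 21.6 TPM in MBNL2 and 19.6, 23.6 and 17.6 TPM in MBNL1+MBNL2. The +dox libraries stood apart from the other cohorts, which overlapped each other. Aurka, the kinase that matures centrosomes, was close to the floor of the rule, at 1.93, 1.72 and 1.01 TPM in +dox and at 0.58, 0.47 and 0.84 TPM in +/–dox. One of its MBNL2 libraries, at 1.02 TPM, reached the lowest +dox library. Mcm7, a subunit of the helicase that opens DNA for replication, was at 8.09, 8.00 and 6.88 TPM in +dox and at 3.16, 3.71 and 5.13 TPM in +/–dox. Spc25, a subunit of the NDC80 complex that ties kinetochores to microtubules, had 3.44, 2.19 and 1.33 TPM in +dox and 0.30, 0.20 and 0.61 TPM in +/–dox.

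A list of 30 cell cycle genes gave the setting of this group. It held 15 candidates, all lower in +/–dox ventricles, of which only Aurka and Mcm7 were members. Beside this list, 654 of all 55291 symbols were candidates. The lowest position of the other 13 ran from 0.197 to 0.678. Of these 13, 9 reached 0.7 in MBNL1, 10 in MBNL1+MBNL2 and 0 in MBNL2. With each cohort centred on the median of all genes tested, 9, 10 and 3 reached it in the same order. Each of the 13 had missed 0.7 in at least 1 cohort. Those that reached it in both MBNL1 and MBNL1+MBNL2 therefore had to miss it in MBNL2 before centring. These counts use the values behind the rule and were not tested. They include the first MBNL1 ventricle, which had the fewest genes above 0. Aurka was at 0.08 TPM in it, against 0.71 and 0.79 TPM in the other MBNL1 ventricles. Mcm7 was at 4.48 TPM in it, against 4.59 and 5.07 TPM. The weight of that library in the MBNL1 counts was not tested.

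Promoters of cell cycle genes often pair CCAAT boxes, bound by NF-Y, with a cell cycle homology region of the letters TTTGAA near the start, through which the DREAM complex keeps such genes silent outside late division. The RefSeq promoter table (GRCm38.p6) had a window from 250 bases before to 50 after the start for 51 of the 72 members. The 5 lower members whose window held both sets of letters were all in the cell division group, and their windows are shown because they carry both. CCAAT or its reverse complement ATTGG and TTTGAA or its reverse complement are in capitals. The windows lie at chr2:69206164-69206463 (Spc25, minus strand), chr2:172370521-172370820 (Aurka, minus), chr6:124829926-124830225 (Cdca3, plus), chr11:40733388-40733687 (Hmmr, minus) and chr2:113848612-113848911 (Arhgap11a, minus).
Spc25: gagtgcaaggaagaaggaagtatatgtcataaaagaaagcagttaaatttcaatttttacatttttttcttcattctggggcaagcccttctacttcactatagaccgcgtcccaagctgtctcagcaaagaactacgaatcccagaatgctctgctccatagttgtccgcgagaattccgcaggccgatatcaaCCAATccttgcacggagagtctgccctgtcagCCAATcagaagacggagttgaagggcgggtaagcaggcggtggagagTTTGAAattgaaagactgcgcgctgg
Aurka: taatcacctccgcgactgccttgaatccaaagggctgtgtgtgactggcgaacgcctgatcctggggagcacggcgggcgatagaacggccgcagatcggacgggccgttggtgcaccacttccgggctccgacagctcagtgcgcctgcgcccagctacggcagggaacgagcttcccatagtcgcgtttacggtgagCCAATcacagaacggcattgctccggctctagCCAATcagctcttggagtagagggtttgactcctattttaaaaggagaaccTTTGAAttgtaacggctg
Cdca3: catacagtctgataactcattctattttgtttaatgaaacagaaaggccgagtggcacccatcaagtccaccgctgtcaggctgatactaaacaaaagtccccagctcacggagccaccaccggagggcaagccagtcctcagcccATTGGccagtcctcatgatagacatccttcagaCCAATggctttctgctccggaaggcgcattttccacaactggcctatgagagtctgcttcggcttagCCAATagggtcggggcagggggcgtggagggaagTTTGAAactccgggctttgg
Hmmr: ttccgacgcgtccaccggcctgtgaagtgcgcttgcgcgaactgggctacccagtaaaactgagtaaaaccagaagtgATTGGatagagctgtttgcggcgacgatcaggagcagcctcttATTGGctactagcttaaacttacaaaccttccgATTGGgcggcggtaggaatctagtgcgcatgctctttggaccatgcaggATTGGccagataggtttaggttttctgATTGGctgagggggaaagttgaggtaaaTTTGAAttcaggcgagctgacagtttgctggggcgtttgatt
Arhgap11a: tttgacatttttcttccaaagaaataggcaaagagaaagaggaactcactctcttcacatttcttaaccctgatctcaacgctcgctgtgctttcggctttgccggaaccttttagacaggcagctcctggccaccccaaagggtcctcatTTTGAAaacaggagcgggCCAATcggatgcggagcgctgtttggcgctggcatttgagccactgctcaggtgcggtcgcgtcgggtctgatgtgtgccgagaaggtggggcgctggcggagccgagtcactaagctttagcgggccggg

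In Spc25 and Aurka, 2 CCAAT boxes were followed by TTTGAA, with boxes at -55 and -23 and TTTGAA at 24 in Spc25 and boxes at -51 and -19 and TTTGAA at 32 in Aurka, counted from the start to the first base of the match. Cdca3 had 3 boxes (-104, -71 and -4) before TTTGAA at 30, and Hmmr had 5 (the nearest at -20) before TTTGAA at 8. Arhgap11a was arranged the other way round, with TTTGAA at -99 and the box at -81. Over all windows, CCAAT on either strand was in 17 of 24 windows of lower members (70.8%), 19 of 43 of higher members (44.2%) and 37.4% of all 32851 windows. Both CCAAT and TTTGAA were in 20.8%, 2.33% and 6.95%. TTTGAA, with or without CCAAT, was in 20.8%, 4.65% and 17.9%. The search for TTTGAA was added after the lower members had been seen.

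The higher members held the GC box GGGCGG in 30 of 43 windows (69.8%), against 45.8% for the lower members and 35.7% of all windows. Several motifs of heart and muscle factors were also searched. The MEF2 site (CTA, 4 of A or T, TAG) was in 0% against 0.557% of all windows, the CArG box (CC, 6 of A or T, GG) in 4.65% against 1.63%, AGATAA in 4.65% against 11.2%, CATTCC in 6 of 43 windows against 4817 of all 32851 and CAGCTG in 20.9% against 16.3%. TATAAA was in 0% of windows of higher members against 13.6% of all. A gene can have more than 1 window: the 43 windows of higher members came from 30 genes and the 24 of lower members from 21. Both CArG matches of higher members were in windows of Slc25a23. These matches describe letters in these windows and were not tested.

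Other lower members came from unrelated pathways. Coa3, an assembly factor of cytochrome c oxidase in the mitochondrial inner membrane, was the most abundant lower member, at 154, 151 and 108 TPM in +dox and at 86.7, 68.4 and 78.0 TPM in +/–dox ventricles. Its MBNL libraries ran from 61.1 to 90.9 TPM, below every +dox library. Cabcoco1, a calcium-binding coiled-coil gene, was at 30.5, 30.2 and 31.6 TPM in +dox and at 16.6, 17.7 and 20.4 TPM in +/–dox ventricles. Its MBNL2 libraries, at 17.3, 22.7 and 23.8 TPM, gave its lowest position (0.721). Sun3, a SUN-domain gene of the nuclear envelope, was at 11.5, 13.3 and 20.4 TPM in +dox and 7.18, 8.58 and 10.01 TPM in +/–dox ventricles. Macroh2a2 encodes a variant of histone H2A and Eda2r a receptor of the TNF family. Their +dox means were 7.62 ± 1.10 and 2.19 ± 0.32 TPM (SD, n = 3), and their +/–dox means were 4.49 ± 0.55 and 1.08 ± 0.17 TPM. The MBNL1+MBNL2 position was above 1 for both, at 1.22 and 1.08.

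The higher members included several proteins of the contractile apparatus and of the sites that anchor it. Tcap (telethonin), which caps titin at the Z-disc, was at 1538, 1614 and 1179 TPM in +dox and at 2642, 2541 and 2171 TPM in +/–dox ventricles. Its MBNL1 libraries had 2162, 2305 and 2253 TPM, its MBNL2 libraries 2040, 2205 and 2174 TPM and its MBNL1+MBNL2 libraries 2806, 1746 and 1921 TPM. All 9 MBNL libraries were thus above +dox, although the –dox libraries, at 1880, 1657 and 1544 TPM, overlapped +dox. Ankrd23, a stretch-responsive ankyrin repeat protein of the I-band of titin, was at 331, 259 and 110 TPM in +dox and at 374, 429 and 413 TPM in +/–dox ventricles (chr1:36530188-36536883, minus strand). Its +dox libraries spread widely, and 2 of its 9 MBNL libraries, at 329.9 and 300.8 TPM, lay within them.

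At the membrane, Tln1 (talin), which links integrins to actin (chr4:43531519-43562691, minus strand), was at 21.2, 17.8 and 17.8 TPM in +dox and at 32.4, 31.8 and 32.6 TPM in +/–dox ventricles. The MBNL1 libraries had 27.1, 31.5 and 30.5 TPM, the MBNL2 libraries 33.0, 30.9 and 28.9 TPM and the MBNL1+MBNL2 libraries 34.3, 28.4 and 24.1 TPM. None of them overlapped the +dox libraries. Jup (plakoglobin), which joins desmosomes and adherens junctions of the intercalated disc to the cytoskeleton, was at 88.5, 78.6 and 72.4 TPM in +dox and at 129, 125 and 125 TPM in +/–dox ventricles. Lims2, a PINCH adaptor of integrin-linked kinase, was at 36.6, 33.7 and 39.6 TPM in +dox and at 71.2, 59.3 and 62.8 TPM in +/–dox. The third MBNL1+MBNL2 library was the lowest of its cohort in Tln1, Jup and Lims2, at 24.1, 93.0 and 39.9 TPM.

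Of the channels and receptors, Scn4a, the sodium channel of skeletal muscle, was at 6.00, 6.85 and 6.84 TPM in +dox and at 12.6, 11.2 and 7.71 TPM in +/–dox. Npr2, the guanylyl cyclase receptor of C-type natriuretic peptide, was at 12.5, 12.2 and 12.8 TPM in +dox and at 21.0, 20.9 and 22.0 TPM in +/–dox. Its MBNL1+MBNL2 libraries spread more, at 24.1, 18.5 and 15.9 TPM. Its MBNL positions lay between 0.798 and 0.817.

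Genes of fuel handling were further higher members. Plin5, which coats lipid droplets and ties them to mitochondria in oxidative muscle, had the largest difference of the higher members on the scale of the rule (1.06 in log2(TPM + 1), chr17:56111601-56117596, minus strand). It was at 32.3, 38.1 and 26.9 TPM in +dox, 79.5, 69.1 and 57.0 TPM in +/–dox and 72.7, 54.9 and 60.0 TPM in –dox ventricles. The MBNL libraries ran from 41.3 to 74.0 TPM and did not overlap +dox. Ak4, a mitochondrial adenylate kinase, was at 12.4, 12.3 and 13.5 TPM in +dox and at 20.2, 19.0 and 19.9 TPM in +/–dox, and its MBNL positions (1.02, 1.15 and 1.14) were all above 1. Slc25a22 and Slc25a23, mitochondrial carriers of glutamate and of ATP-Mg, were further members, with positions from 0.708 to 0.949 and from 0.733 to 0.885. Mt2, a metal-binding metallothionein, was at 8.11, 9.27 and 6.28 TPM in +dox and at 19.1, 18.6 and 11.8 TPM in +/–dox ventricles. In MBNL1+MBNL2 it exceeded +/–dox (22.3, 26.1 and 23.01 TPM, position 1.55).

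Some higher members act outside the cell, although of the list of 50 collagen and matrix genes only Col15a1 was a member. Adamtsl5, a secreted ADAMTS-like protein that binds fibrillin microfibrils, was at 33.3, 29.8 and 20.7 TPM in +dox and at 56.2, 51.9 and 59.7 TPM in +/–dox ventricles. Its MBNL libraries ran from 35.7 to 59.9 TPM, all above +dox. Col15a1 (collagen of basement membranes), Htra3 (a secreted serine protease), Igfbp5 (which binds insulin-like growth factors), Ctf1 (cardiotrophin 1) and Gpc1 (a heparan sulfate proteoglycan) had +/–dox folds of 1.51, 1.78, 1.53, 1.53 and 1.55. Signalling and actin regulators included Tnip1 (ABIN-1) and Rbck1 (HOIL-1), both regulators of NF-κB signalling through ubiquitin chains, and Cyfip1, a subunit of the WAVE complex that starts actin branching. Their ventricular folds were 1.65, 1.57 and 1.78. Gsn (gelsolin), which severs actin filaments, had a fold of 1.54.

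**Figure D3:**
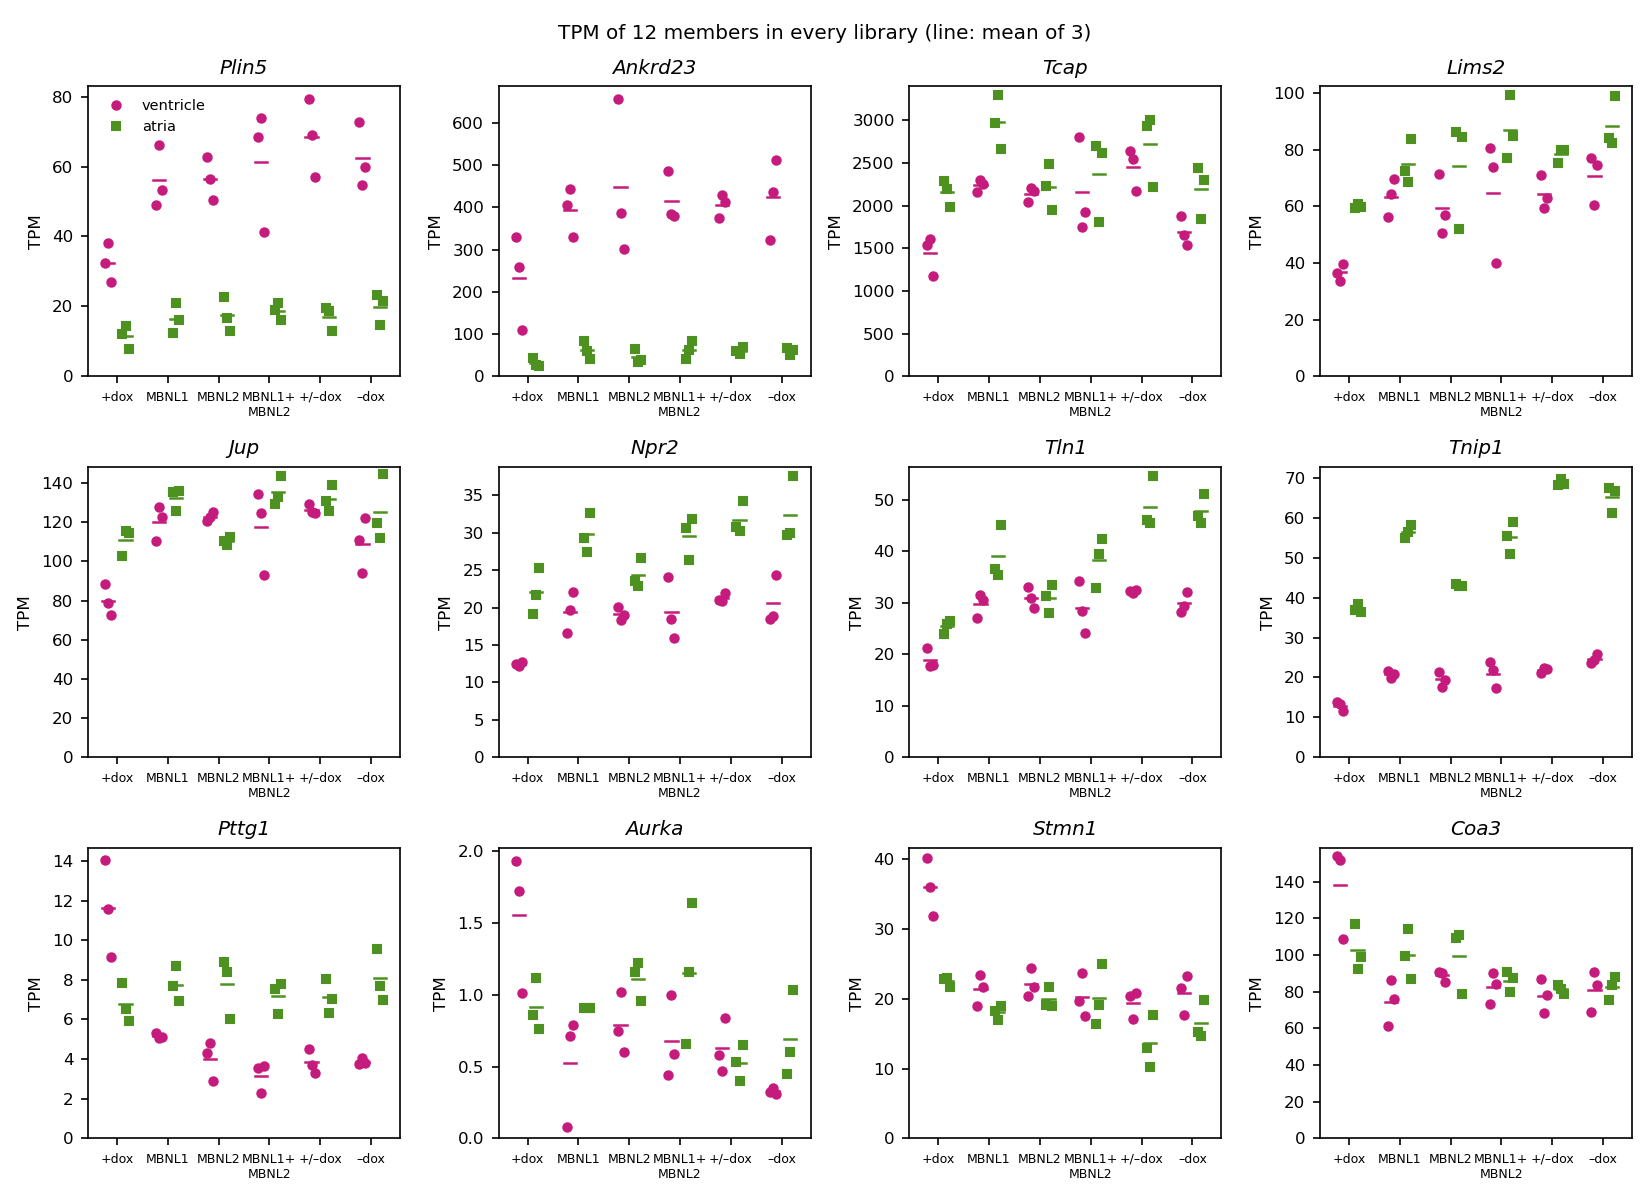
TPM of 12 members in every library of the 6 cohorts, ventricles as circles and atria as squares, with a line at each mean of 3 and every axis from 0. Tln1 and Tnip1 show the +dox level as the lowest in both chambers, whereas Pttg1 has high +dox libraries in the ventricle and overlapping cohorts in the atria.

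The –dox ventricles, which the rule did not use but which are compared with the same +dox libraries, lay near +/–dox for the lower members and less uniformly for the higher ones. The median –dox position was 0.987 for the 26 lower members, with a range from 0.805 to 1.54. For the 46 higher members it was 0.877, and 12 of them were under 0.7. The 12 were Col15a1 (0.145), Tcap (0.309), Gsn (0.373), Ctf1 (0.536), Htra3 (0.545), Inafm1 (0.557), Gpc1 (0.575), Igfbp5 (0.606), Vsir (0.658), Adamtsl4 (0.659), Rhbdf1 (0.666) and Jup (0.668). Col15a1 measured 22.99, 23.95 and 37.8 TPM in –dox against 29.5, 25.6 and 22.9 TPM in +dox ventricles, within each other's range, while its MBNL libraries ran from 36.5 to 61.6 TPM. Beside these genes, the summed fibroblast markers were at 583 to 730 TPM in –dox, 682 to 748 TPM in +dox, 734 to 854 TPM in +/–dox and 723 to 1142 TPM in the MBNL ventricles, and the part of that difference in the values of Col15a1 and the other 11 was not tested. The –dox libraries overlapped +dox in 9 members and lay wholly apart from +/–dox in 9 members, with 8 of these below and Tnip1 above. No share over all genes is given beside these counts, so nothing is read from them.

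In the quasi-likelihood test of edgeR, a gene was called when its adjusted p was under 0.05 and it differed 1.5-fold or more. In the ventricle 62 members were called in +/–dox (6.6% of all genes tested were called in either direction), 51 in –dox (7.6%), 36 in MBNL1 (2.66%), 27 in MBNL2 (1.52%) and 38 in MBNL1+MBNL2 (2.65%). Since these contrasts chose the members or share their +dox libraries, nothing is read from the counts.

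The atria gave libraries that the rule had not used, from the same animals as the ventricles that chose the members. They tell whether the members that the ventricle picked also moved in the other chamber when the repeat RNA was turned off. Among the 46 higher members, 11 rose in +/–dox against +dox atria, beside 2.01% of all genes tested that were called higher. The 11 were Cyp2b10, Gm29237, Adamtsl5, Ankrd23, Tln1, Mt2, Tnip1, Cyfip1, Inafm1, Ak4 and Npr2. Among the 26 lower members, Sun3, Frem2, Cabcoco1 and Stmn1 fell, beside 1.98% of all genes that were called lower. The median log2 fold change was 0.42 over the higher and -0.47 over the lower members, beside 0.03 over all genes tested. The sign was positive in 45 of the 46 and negative in 24 of the 26.

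By the libraries themselves, every +/–dox atrial library lay above every +dox one in 30 of the 46 higher members (9.95% of all genes tested), and every one lay below in 16 of the 26 lower members (21.8% of all genes). No member separated in the direction opposite to the ventricle. The candidates that were not members had more calls in the atria, with 88 of 252 tested higher ones (34.9%) and 105 of 326 lower ones (32.2%) in the same direction as in the ventricle. The share among members was 23.9% for the higher and 15.4% for the lower ones, and the difference was not tested.

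The lowest adjusted p values were those of Cyfip1, Tln1 and Tnip1. Tln1 was at 24.0, 25.8 and 26.5 TPM in +dox and at 46.1, 45.4 and 54.5 TPM in +/–dox atria, without overlap (log2 fold change 0.99 ± 0.10 SE, n = 3 per group, edgeR adjusted p = 1.64e-08). Tnip1 was at 37.0, 38.5 and 36.3 TPM in +dox and at 68.3, 69.8 and 68.4 TPM in +/–dox atria (0.95 ± 0.10, adjusted p = 2.47e-08). Tnip1 was nearly uniform within these cohorts, and Tln1 spread more in +/–dox atria. Cyfip1 was at 10.2, 10.6 and 11.9 TPM in +dox and 19.7, 18.6 and 20.2 TPM in +/–dox atria (0.86 ± 0.08, adjusted p = 5.91e-09). Adamtsl5 rose from 21.3, 19.7 and 26.9 to 44.4, 35.0 and 49.5 TPM (1.09 ± 0.18, adjusted p = 0.000145). Npr2 rose from 19.2, 21.7 and 25.2 to 30.8, 30.2 and 34.2 TPM, with a log2 fold change of 0.59 ± 0.10 (adjusted p = 0.000112) that is just past the limit of 1.5-fold.

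Of the sarcomere and fuel genes, Ankrd23 and Ak4 rose and Plin5 did not pass the test. Ankrd23 was at 42.5, 27.0 and 23.5 TPM in +dox and at 60.2, 53.0 and 70.2 TPM in +/–dox atria (1.09 ± 0.36, adjusted p = 0.0468). Ak4 was at 6.02, 6.31 and 5.63 TPM in +dox and at 9.61, 8.65 and 8.88 TPM in +/–dox atria (0.65 ± 0.14, adjusted p = 0.0019). For Plin5 the atrial libraries, 12.2, 14.4 and 7.84 TPM in +dox and 19.5, 18.8 and 13.03 TPM in +/–dox, overlapped and it was not called (0.63 ± 0.28, adjusted p = 0.158). Jup (0.31 ± 0.09, adjusted p = 0.023) passed the adjusted p but not the fold. Tcap was not called (0.41 ± 0.19, adjusted p = 0.175). Gm29237, an annotated antisense RNA, rose by 1.53 ± 0.23 (adjusted p = 2.2e-05), and since the strand setting of the counting is not given, reads of the gene on the other strand cannot be told apart from its own.

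Of the 12 genes of cell division, Stmn1 fell from 22.5 ± 0.675 TPM in +dox to 13.6 ± 3.77 TPM in +/–dox atria (SD, n = 3), where the libraries did not overlap (-0.67 ± 0.14, adjusted p = 0.00178). Pttg1, the named gene with the largest ventricular difference in this group, was at 7.85, 6.53 and 5.92 TPM in +dox and at 8.04, 6.35 and 7.03 TPM in +/–dox atria (0.24 ± 0.23, adjusted p = 0.547). Mcm7 had a log2 fold change of 0.22 ± 0.15 (adjusted p = 0.39) and Aurka of -0.75 ± 0.44 (adjusted p = 0.306). Stmn1 was the 1 gene of the 12 that was called, and 10 of the 12 had a negative sign. Their summed atrial level was 65.1 to 68.3 TPM in +dox and 48.0 to 56.2 TPM in +/–dox. The sum was 61.0 to 63.6 TPM in MBNL1, 60.2 to 66.2 TPM in MBNL2 and 58.5 to 73.0 TPM in MBNL1+MBNL2 atria. In these 3 cohorts 9, 4 and 3 of the 12 were negative, with medians of -0.09, 0.23 and 0.14. Most of the 12 thus had the sign opposite to the ventricle in the cohorts given MBNL2, although their sums there overlapped +dox. Over all genes tested, 9770 were negative and 9444 positive in MBNL2 atria, and 9794 and 9419 in MBNL1+MBNL2 atria. The signs of the 12, of which 8 had a ventricular +dox mean under 5 TPM, were not tested. Of the 30 genes on the cell cycle list, 1 rose and 2 fell in +/–dox atria, beside 2.01% and 1.98% of all genes tested.

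**Figure D4:**
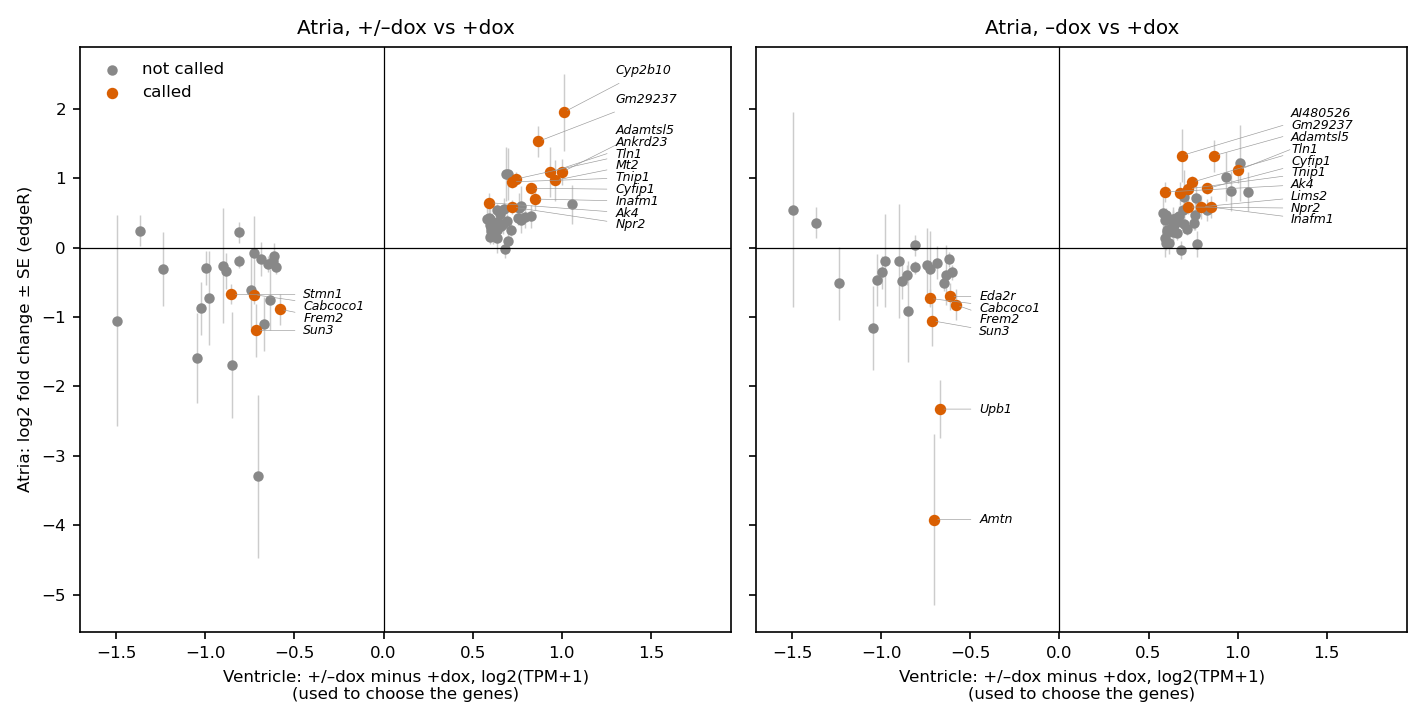
Log2 fold change (edgeR) with its SE in the atria, for +/–dox (left) and –dox (right) against +dox, plotted against the ventricular difference that chose the member. In the left panel 45 of the 46 members on the right side are above 0 and 24 of the 26 on the left side are below it, with the 15 called ones labelled.

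In –dox against the same +dox atria, 11 of the 46 higher members rose (2.83% of all genes were called higher) and 6 of the 26 lower members fell (2.4% of all genes were called lower). The median log2 fold changes were 0.44 and -0.39, beside 0.03 over all genes. Tln1 rose by 0.94 ± 0.10 (adjusted p = 3.4e-08), Tnip1 by 0.85 ± 0.10 (1.62e-07) and Cyfip1 by 0.86 ± 0.08 (4.62e-09). Lims2 was called here (0.59 ± 0.17, adjusted p = 0.0165). Cabcoco1 fell by 0.73 on the log2 scale (SE 0.13, adjusted p = 0.000149) and Frem2, a basement membrane protein, by 0.82 (SE 0.22, adjusted p = 0.0109). Upb1, an enzyme of pyrimidine breakdown, fell from 0.39, 0.60 and 1.10 to 0.14, 0.11 and 0.15 TPM (-2.33 ± 0.42, adjusted p = 0.000186). Stmn1 was at 15.3, 14.6 and 19.8 TPM (-0.40 ± 0.14, adjusted p = 0.0554). In the cell division group, Haus1 had the lowest adjusted p (0.0242) with a fold change under 1.5 (-0.35 ± 0.11).

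In the MBNL cohorts few atrial changes passed the test. In MBNL1 against +dox atria, Tln1 and Tnip1 rose, beside 0.0988% of all genes called higher and 0.0312% called lower. Tln1 was at 36.5, 35.4 and 45.1 TPM in MBNL1 atria (0.60 ± 0.10, adjusted p = 0.0012) and Tnip1 at 54.9, 56.4 and 58.1 TPM (0.59 ± 0.10, adjusted p = 0.0012). Both lay above every +dox and below every +/–dox atrial library. Cyfip1 (0.39 ± 0.08, adjusted p = 0.0145), Rbck1 (0.40 ± 0.09, adjusted p = 0.0322) and Npr2 (0.42 ± 0.10, adjusted p = 0.0462) passed the adjusted p but not the fold. The median was 0.28 over the higher and -0.15 over the lower members, beside 0.00 over all genes.

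In MBNL2 atria 0 members were called by edgeR and 0 by DESeq2, and 8 had an unadjusted p below 0.05, while 0.0052% of all genes were called higher and 0% lower. Tnip1 was at 43.5, 43.0 and 43.0 TPM, above every +dox library (0.25 ± 0.10, adjusted p = 0.952), and Tln1 at 31.4, 28.0 and 33.5 TPM (0.31 ± 0.10, adjusted p = 0.722). The medians were 0.16 and -0.06. In MBNL1+MBNL2 atria Mt2 rose (33.7, 27.2 and 32.3 TPM against 12.7, 16.2 and 11.7 TPM in +dox, 1.22 ± 0.29, adjusted p = 0.0418), and so did Gm29237 (0.97 ± 0.23, adjusted p = 0.0355), calls that both needed all 6 libraries, beside 0.177% of all genes called higher and 0.0832% called lower. Tln1 (0.53 ± 0.10, adjusted p = 0.00473) and Tnip1 (0.52 ± 0.10, adjusted p = 0.00473) passed the adjusted p but not the fold. The medians were 0.38 and -0.19.

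The difference between MBNL1 and MBNL2 atria was itself tested, a comparison added after the values had been seen. It called 0 members by edgeR and 0 by DESeq2, with 12 at an unadjusted p below 0.05 and 0.0052% of all genes called in either direction. Tln1 differed by 0.28 ± 0.10 (MBNL1 minus MBNL2, log2, adjusted p = 0.755), Tnip1 by 0.34 ± 0.10 (adjusted p = 0.481) and Adamtsl5 by 0.55 ± 0.18 (adjusted p = 0.74). The cohorts were therefore not shown to differ in these genes, nor shown to be alike.

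**Figure D5:**
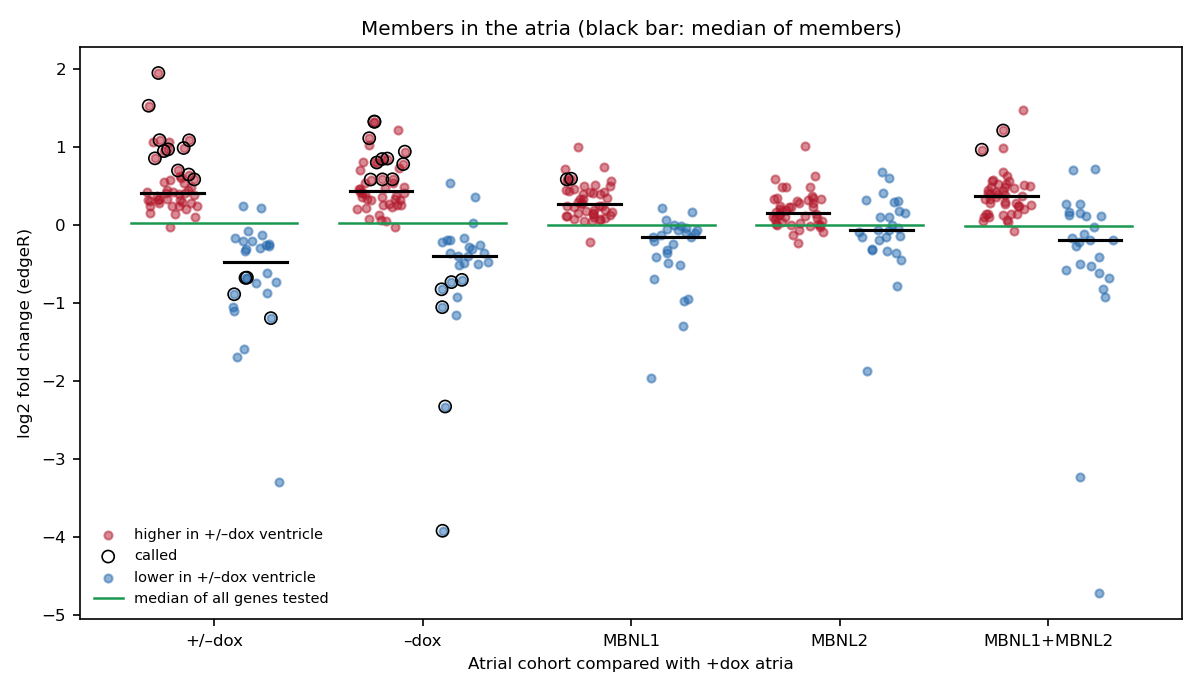
Log2 fold change (edgeR) of the 72 members in the atria of 5 cohorts against +dox atria; black bars are medians of the higher (red) and lower (blue) members, green lines the median of all genes tested, and rings mark called members. The red medians are 0.42 and 0.44 in +/–dox and –dox and 0.28, 0.16 and 0.38 in MBNL1, MBNL2 and MBNL1+MBNL2.

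The members differed in the chamber in which they are normally expressed. Between –dox ventricles and –dox atria, neither of which the rule used, 21 members were higher in the ventricle (13 of the 46 and 8 of the 26) and 6 were lower (4 and 2), beside 11.2% and 13.7% of all genes. The rule chose genes by their level and change in the ventricle, so all genes are not a like comparison. Of the other higher candidates 32.5% were higher in the ventricle and 14.3% lower, and of the other lower candidates 18.7% and 21.2%. These differences were not tested. Sun3 was at 8.88, 6.64 and 11.4 TPM in the ventricle and at 0.08, 0.54 and 0.75 TPM in the atria (4.85 ± 0.35, adjusted p = 1.09e-12). Cpne4, a calcium-dependent membrane-binding copine, differed by 4.46 ± 0.55 (adjusted p = 5.43e-08), Amtn by 3.84 ± 1.26 (adjusted p = 0.0134) and Ankrd23 by 3.35 ± 0.39 (adjusted p = 8.09e-08). Plin5 was higher in the ventricle too (2.20 ± 0.29, adjusted p = 4.93e-07). Igfbp5 (-2.06 ± 0.17, adjusted p = 8.98e-11), Tceal8 (-1.68 ± 0.11, adjusted p = 7.86e-14), Gsn (-1.57 ± 0.10, adjusted p = 6.46e-14) and Slc25a23 (-0.96 ± 0.09, adjusted p = 5.71e-10) were higher in the atria. Tnip1, which rose in +/–dox and –dox atria, was higher in the atria (-0.85 ± 0.10, adjusted p = 8.68e-09).

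Set in their pathways, the members were at most 2 genes of each list below. All genes of these lists were among the 19231 genes tested. Of those 19231, 72 were members, and 252 higher and 326 lower ones were candidates outside the members. Over all 55291 symbols, most of which were not tested, 654 were candidates. In +/–dox atria 2.01% of all genes tested rose and 1.98% fell. Whether the lists differ from these shares was not tested. The list of 61 sarcomere and Z-disc genes held 7 candidates higher and 3 lower in +/–dox ventricles, of which Tcap and Ankrd23 were members, and in +/–dox atria 4 of the 61 rose and 2 fell. Of 35 genes of fatty acid use, 8 were candidates, all higher, with Plin5 as the member, and 4 rose in +/–dox atria. Of 20 desmosome and intercalated disc genes, 3 were candidates, all higher, with Jup and Lims2 as members, and 1 fell in +/–dox atria. Of 39 genes of adrenergic, muscarinic and cyclic nucleotide signalling, 3 were candidates higher and 2 lower with Npr2 as the member, and 6 rose and 1 fell. Of 50 collagen and matrix genes, 3 were candidates higher and 1 lower with Col15a1 as the member. The 36 genes of the respiratory chain held 0 candidates, and Coa3, an assembly factor, is not on that list.

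Some members need care. Hba-a2, whose sequence is nearly identical to Hba-a1, was at 14.4, 15.2 and 92.2 TPM in +dox ventricles and at 8.68, 8.87 and 9.92 TPM in +/–dox ones, while the summed red blood cell markers went the other way (393 to 1243 TPM in +dox and 2354 to 2933 TPM in +/–dox), so that its division of reads with Hba-a1 is uncertain. Gm12138 is a processed pseudogene, and 7 of the 72 symbols are predicted genes. Sox17 and Robo4, genes of endothelial cells, were higher members with folds of 1.55 and 1.59. Beside them, the summed endothelial markers were at 529 to 584 TPM in +dox and 653 to 714 TPM in +/–dox ventricles, with none of the 6 under 0.1 TPM. Beside Tcap, Ankrd23 and Plin5, the summed cardiomyocyte markers were at 29540 to 31604 TPM in +dox and 35962 to 37478 TPM in +/–dox ventricles. Of these 7 markers, 2 were themselves candidates, Ryr2 among them. In the MBNL ventricles the endothelial sums were 511 to 654 TPM and the cardiomyocyte sums 27024 to 34539 TPM, and both overlapped +dox. The –dox ventricles had 691 to 836 TPM and 31487 to 33934 TPM. The part of these differences in the members' values was not tested. The cell division genes stood beside macrophage markers at 176 to 286 TPM in +dox and 171 to 226 TPM in +/–dox ventricles, which overlap.

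The atrial calls rested on all libraries to different degrees. Tnip1, Tln1, Cyfip1, Inafm1, Gm29237, Adamtsl5 and Frem2 kept their call in +/–dox in each of 12 alternative settings. Npr2 kept it in 6, always with an adjusted p of at most 0.00248, because its fold lies at the limit. It lost the call without +dox replicate 1 (0.53), +dox replicate 2 (0.58), +/–dox replicate 2 (0.56) and +/–dox replicate 3 (0.57). Stmn1 lost it without +/–dox replicate 2 (-0.55), Cabcoco1 without +/–dox replicate 3 (-0.53) and Ak4 without +dox replicate 3 (0.56). Sun3 and Ankrd23 kept it in 5 of the 12 settings, and Mt2 and Cyp2b10 in 7. Ankrd23 lost it without +dox replicate 2 (1.01) or 3 (0.90) and without +/–dox replicate 1 (1.09), 2 (1.13) or 3 (1.02). Sun3 lost it without any 1 +dox library (-1.24, -1.16 and -1.18) and without +/–dox replicate 1 (-1.02) or 2 (-1.09). Mt2 lost it without +dox replicate 1 (0.95) or 3 (0.86) and without +/–dox replicate 1 (0.95) or 2 (0.78), and Cyp2b10 without the same 4 libraries (1.93, 1.63, 1.88 and 1.51). The highest adjusted p over the settings was 0.137 for Sun3, 0.166 for Ankrd23, 0.139 for Mt2 and 0.152 for Cyp2b10. In MBNL1 atria, 0 members were called without +dox replicate 3 and 1 without MBNL1 replicate 2 or 3. In MBNL1+MBNL2 atria, Mt2 and Gm29237 both lost their call whichever of the 6 libraries was left out. The count was then 0 without +dox replicate 1 or MBNL1+MBNL2 replicate 2 or 3, and 1, another member, without any other library.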

How the data were processed

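Poly(A) RNA of left ventricle and atria was sequenced from 36 libraries (3 per cohort and chamber) after preparation with the TruSeq Stranded mRNA kit from 250 ng of RNA. The authors aligned the reads with STAR 2.7.10b to mm10 and quantified them with RSEM 1.3.1 on GENCODE M25, and deposited 2 tables by gene symbol. The deposited expected counts are estimates that need not be whole, since RSEM divides reads shared between genes. The authors' TPM table holds values scaled to transcript length and library total. How RSEM treated strand is not given in the sources used here.

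Samples were grouped by their labels for treatment and tissue. The members, the gene lists, the motifs and the tests were chosen with earlier results of these data known. The members were selected on means of log2(TPM + 1) over 3 libraries. For tests, the expected counts were rounded to whole numbers, filtered with filterByExpr of edgeR (19231 genes) and scaled by TMM. All 12 groups were fitted in 1 model with the robust quasi-likelihood test of edgeR 4.0.16 (R 4.3.3, limma 3.58.1), two-sided, with Benjamini-Hochberg adjustment over all genes tested. Fold changes are given on the log2 scale with their SE. A call took an adjusted p under 0.05 with a 1.5-fold or larger difference. A replicate is 1 animal, with 3 animals per group. For each gene the p-values rest on 1 estimate of the spread that all 12 groups share. Both chambers of an animal entered the model as separate libraries. Ventricular contrasts that the rule used are descriptions.

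Named genes were the 10 members with the largest ventricular difference in each direction at 5 TPM or more, members on a gene list, up to 6 in each direction that were called in both dox comparisons of the atria, members called in an MBNL cohort of the atria, up to 4 in each direction called between chambers, the 3 genes on either side of the threshold and the genes that the study named for expression, some of which are not reported here. Predicted genes were named only for the first reason. Other members named for their role, the 12 genes of cell division among them, and genes named because their count was 5 or fewer were chosen after their values were seen. Positions and types of 70 members were found in GENCODE M21 (GRCm38), and promoter windows were taken from RefSeq (GRCm38.p6). Motifs were searched on both strands.

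The –dox ventricles and –dox atria came from the same animals according to the study's supplement, which gives no replicate numbers. Whether equal numbers mean the same animal is therefore not stated. Deviations of their same-numbered libraries from the group means correlated at 0.123, 0.146 and 0.243. DESeq2 1.42.0, other scalings, filters and thresholds, a replicate block, the library set shown by the library names and leaving out each library were tried as alternatives. Python 3.11.15 with numpy 2.4.6, pandas 2.3.3 and matplotlib 3.10.9 was used for the summaries and figures.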

Additional observations from a re-analysis of the deposited data

How the results depend on the processing

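The member count of 72 became 148 at a position of at least 0.6, 23 at 0.8 and 8 with a difference of at least 1.0. It was 55 with a mean of at least 5 TPM, 94 with a pseudocount of 0.5, 93 with overlap allowed, 96 on TMM-scaled CPM, 77 with cohorts centred on the median of all genes tested (65 shared, added after seeing the data) and 55 with –dox in place of +/–dox (35 of them shared). Leaving out 1 library gave 54 to 141 members, with 141 without ventricular +dox replicate 2, and kept 43 to 72 of the 72.

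With the adjusted p alone, 25 members were called in +/–dox atria (15 with the fold), 31 in –dox atria (17), 5 in MBNL1 atria (2), 8 in MBNL1+MBNL2 atria (2) and 50 in MBNL2 ventricles (27). With no filter on low counts, 1 member was called in MBNL1 and 1 in MBNL1+MBNL2 atria. In MBNL1+MBNL2 atria the count was 4 with the library set as a term (1 of the 2 calls shared), 1 with only the 6 libraries compared and 4 with DESeq2. With only the 6 libraries compared, 9 members were called in MBNL1 ventricles (36 with all libraries) and 25 in MBNL1+MBNL2 ventricles (38), a fit with fewer samples. The cause of the other changes was not tested. Leaving out 1 library gave 11 to 14 calls in +/–dox, 12 to 18 in –dox, 0 to 2 in MBNL1, 0 to 0 in MBNL2 and 0 to 1 in MBNL1+MBNL2 atria, and 23 to 28 between the chambers. In the ventricle it gave 47 to 59 in +/–dox, 39 to 48 in –dox, 28 to 40 in MBNL1, 14 to 34 in MBNL2 (14 without MBNL2 replicate 1) and 23 to 51 in MBNL1+MBNL2 (23 without MBNL1+MBNL2 replicate 1). Of 143 alternative counts of called members, 120 stayed within 1.5 times and 23 did not.

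With the replicate number as a block, 17 members were called in +/–dox atria, 20 in –dox, 2 in MBNL1, 0 in MBNL2 and 3 in MBNL1+MBNL2 atria, and 27 between the chambers, as without it. The numbers are not stated to pair the samples in any comparison. Outside the chamber comparison same-number correlations ran from -0.115 to 0.290. Each library correlated best with its own number in MBNL1 atria (0.0845, 0.147 and 0.290) and MBNL1 ventricles, a hint from the data and not the design. Expected counts of 55.0 to 97.1 M per library leave members under 5 TPM the least precise.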
